A study of Rattus norvegicus with 18 samples.

Results

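Axon guidance ligands and receptors are described here in RNA from rat spinal cord material, on 18 single-channel Affymetrix arrays. The members were chosen by a rule on gene symbols, with earlier results of these data known. It covers classes 3 to 7 of the semaphorins, plexins, neuropilins, Slits, Robos, ephrins and Eph receptors. It also covers netrins, Unc5 receptors, DCC, neogenin and the repulsive guidance molecules Rgma and Rgmb. The rule took 61 genes of the 14217 genes named on the array. They lie on 103 probe sets, and each gene was read from its brightest probe set over all arrays. Of the 61 genes, 29 are ligands and 30 are receptors. The other 2, Unc50 and Unc5cl, match by the letters of their symbols and are not guidance receptors; they were counted among the 61 and set apart by class.

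The material of 6 arrays had been given bone morphogenetic protein (BMP) at 10 ng/mL, that of 6 more ciliary neurotrophic factor (CNTF) at 10 ng/mL, and 6 arrays were controls. The label entry of both additions ends in "4d", read here as 4 days. The controls carry no time in the labels, so their time point is unknown, and a difference in time cannot be told apart from a difference in treatment. All groups are rat. The labels used here give no strain, age, cell type or culture, and do not name the BMP family member. An entry "14 NT" stands in the description of every array, controls included, and was not interpreted. Every title also has a number, 1 to 6, found once per group, and a group with its number names an array. Whether arrays within a group stem from separate animals or cultures is not stated, so p-values reflect only the spread among these arrays, possibly a technical one.

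Guidance molecules steer growing axons and migrating cells by attraction or repulsion. Slits repel through Robo receptors, secreted class 3 semaphorins act through complexes of neuropilins and plexins, membrane-bound ephrins and Eph receptors signal in both directions between touching cells, and netrins attract through DCC or repel through Unc5 receptors. In the spinal cord these systems are best known from the crossing of commissural axons at the midline, and the repulsive guidance molecules are ligands of neogenin that also serve as BMP co-receptors. BMP signals through SMAD proteins, and CNTF through gp130 and STAT3.

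A level is log2(intensity + 116.655), where the constant is the 20th percentile of the deposited intensities, and a difference of levels is a log2 difference. Fold values are taken from these differences with the constant included, so they understate the change of dim genes. Group values are means ± SD of 6 arrays, and differences carry limma's standard error. A gene was called at a Benjamini-Hochberg adjusted p under 0.05, over all 31042 probe sets tested (limma, two-sided), and "rose" and "fell" are used of called genes. Levels of different probe sets are not comparable with each other. Of the 61 members, 40 had a mean level of at least 9.75, the median of all deposited values, among them 17 of the 29 ligands and 22 of the 30 receptors. No member was left out for a low level.

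With BMP, 12 of 61 guidance genes were called against control (19.7%), all of them higher. This holds for the brightest probe sets without the title number as a block. A second probe set of Efna1 was called lower (-0.92, adjusted p = 0.0486), and 3 members fell in the fit with that block, described below. In the same comparison 6.01% of all probe sets were called, 3.44% higher and 2.57% lower, as were 7.24% of all named genes, each read from its brightest probe set. The risers were Slit1 and Slit2, the receptor Robo2, the neuropilins Nrp1 and Nrp2, Sema3c, Sema4b, the plexin Plxnb2, the ephrins Efna4 and Efna5, and the receptors Epha3 and Ephb4. They split evenly, 6 of 29 ligands (20.7%) and 6 of 30 receptors (20%). All 12 were higher in BMP than in the control of the same number in 6 of 6 pairs. The 12 were picked by calls on these same arrays, which favours such agreement. Of all 61 members, 6 had groups that did not overlap (9.84%), beside 2.83% of all probe sets. Here and in the other comparisons, overlap and unadjusted p were not counted over named genes alone, and all probe sets include dimmer and unnamed ones. The median BMP minus control difference was 0.26 over the members, 0.011 over all probe sets and 0.0053 over all named genes. Of the members, 44 were higher and 17 lower. Unadjusted p values under 0.05 were found for 21 higher (34.4%) and 4 lower members (6.56%), beside 10.4% and 8.19% of all probe sets.

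With CNTF, 3 of 61 were called against control (4.92%), where 2.32% of all probe sets and 2.86% of all named genes were: the semaphorin receptor Plxnd1 rose, and Sema4b and the plexin Plxnc1 fell. Of all 61 members, 2 had groups that did not overlap (3.28%), Plxnd1 and Sema4b, beside 1.97% of all probe sets. By direction, 1.58% of all probe sets were called higher and 0.738% lower. The median CNTF minus control difference was -0.05 over the members and -0.0069 over all probe sets, and unadjusted p was under 0.05 for 7 higher (11.5%) and 10 lower members (16.4%), beside 6.0% and 5.4% of all probe sets. Both comparisons use the same 6 control arrays. Sema4b was the single gene called in both, and in opposite directions.

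Set directly against each other, BMP and CNTF differed in 13 members (21.3%), against 6.23% of all probe sets and 7.5% of all named genes: 11 were higher with BMP, and Efna1 and Plxnd1 were lower. Of all probe sets, 3.24% were called higher and 2.99% lower. All 13 kept their direction in 6 of 6 same-numbered pairs, which their choice by calls on these same arrays favours. Of all 61 members, 10 had groups that did not overlap (16.4%), beside 2.95% of all probe sets. For 9 of the 13 the BMP mean lay above the control mean and the CNTF mean below it, for Efna1 it was the other way round, and for 3 both means lay above control. Picking genes by their BMP minus CNTF difference favours a control mean between the BMP and CNTF means. Of the 13, only Sema4b was called against control with both additions. Over the 3 comparisons 17 members were called at least once and 44 never.

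**Figure D1:**
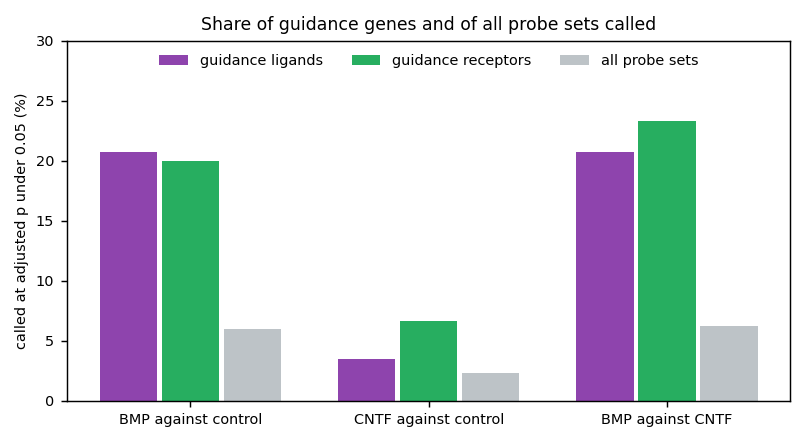
The bars give the percentage of 29 guidance ligands, of 30 guidance receptors and of all 31042 probe sets that were called at an adjusted p under 0.05 in each comparison. With BMP against control, ligands stood at 20.7%, receptors at 20% and all probe sets at 6.01%.

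**Figure D2:**
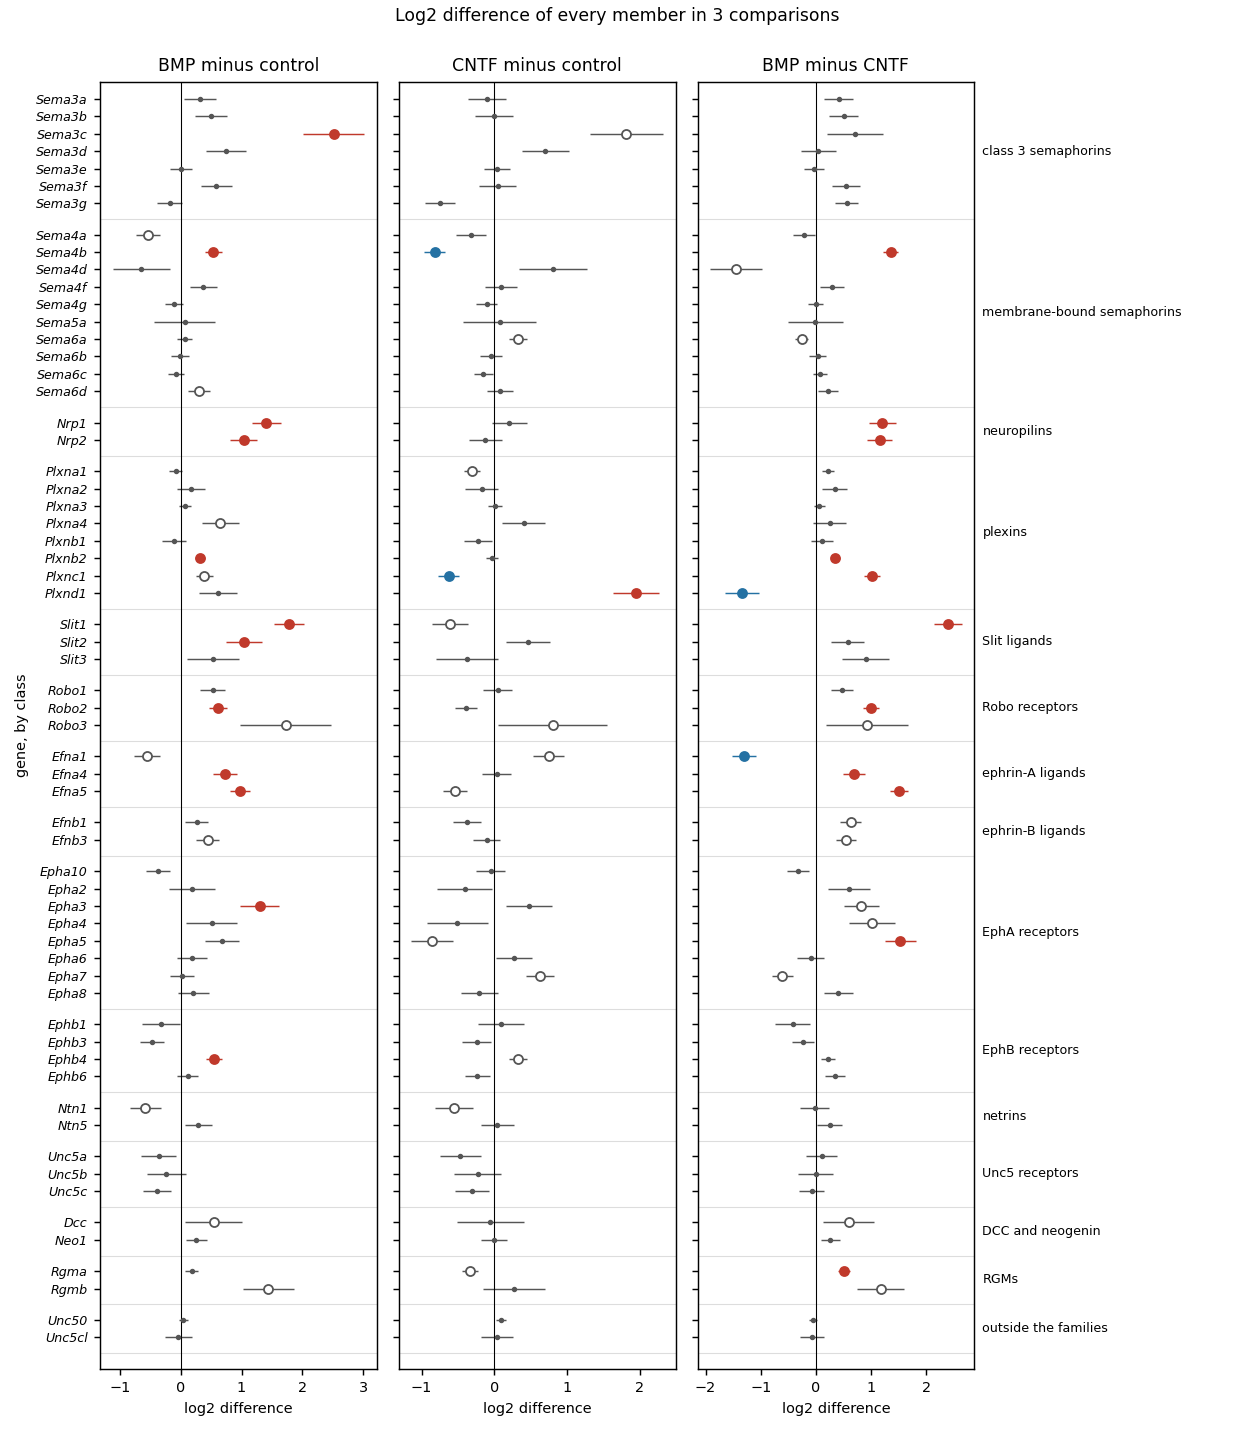
Each point is the log2 difference of 1 of the 61 members in 1 of 3 comparisons, with its standard error as a line, grouped by class. Filled red points were called higher and filled blue points called lower, open points were called only with the title number as a block, and small grey points were not called. In the left panel the 12 red points lie to the right of 0 and there is no blue point.

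Arrays of the same title number deviated from their group means together, and the number was used as a block in an alternative fit. With the block, 22 members were called for BMP against control (19 rose and 3 fell), where 16.7% of all probe sets were called, 9.1% higher and 7.58% lower. For CNTF against control it was 15 (7 rose and 8 fell) beside 7.57%, of which 4.19% higher and 3.38% lower. For BMP against CNTF it was 23 (18 higher and 5 lower) beside 15.1%, of which 8.17% higher and 6.93% lower. Of all named genes, each read from its brightest probe set, 20% were called with the block for BMP against control, 9.5% for CNTF against control and 18.2% for BMP against CNTF, where the members stood at 36.1%, 24.6% and 37.7%. Members whose call depends on the block are given with both adjusted p values where they are described.

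In bulk RNA, more cells of a type and more RNA per cell cannot be told apart, and markers of cell types moved in the same arrays. With BMP, 10 of 10 measured markers of oligodendrocyte precursors fell, and their summed intensity was 34573 to 147960 in BMP arrays, 137214 to 190169 in CNTF arrays and 165516 to 223003 in control arrays. Of 16 oligodendrocyte markers 9 fell with BMP, among them Myrf, Ugt8 and Cnp. Their sum was 28848 to 147106 in BMP arrays, 131989 to 367805 in CNTF arrays and 104471 to 316324 in control arrays. Of 15 neuron markers 3 rose with BMP (Nefl, Stmn2 and Gad1), and their sum was 105837 to 177495 in BMP arrays, 133701 to 156517 in CNTF arrays and 130250 to 138541 in control arrays. Of 14 markers of fibroblasts and smooth muscle 3 rose with BMP (Col1a2, Postn and Fn1), and Fn1 rose with CNTF too. Their sums were 30268 to 128206 in BMP arrays, 14346 to 52347 in CNTF arrays and 8461 to 22060 in control arrays. Of 15 astrocyte markers Aqp4 rose with BMP, while Gfap and Clu rose and Acsbg1 fell with CNTF; the sums were 224241 to 342116 in BMP arrays, 251491 to 384351 in CNTF arrays and 195166 to 297054 in control arrays. Of 9 endothelial markers Tek rose with BMP, of 10 microglial markers Cd14 rose with CNTF, and all of both lists had group means under the table's median. Of 7 Schwann cell markers Pmp2 rose with CNTF, and Sox10, also in the precursor list, fell with BMP. With the block, 8 of the 15 neuron markers rose and 1 fell with BMP, 8 of the 14 fibroblast and smooth muscle markers rose, 4 of the 15 astrocyte markers rose and 1 fell, and 11 of the 16 oligodendrocyte markers fell and 1 rose. With CNTF and the block, 3 neuron markers rose and 1 fell, 2 fibroblast and smooth muscle markers rose, 4 astrocyte markers rose and 3 fell, 2 oligodendrocyte markers rose, and 2 precursor markers fell. Of all named genes, 7.24% were called against control with BMP and 2.86% with CNTF, and 20% and 9.5% with the block. Without the block, the BMP shares were 100% of precursor, 56.2% of oligodendrocyte, 20% of neuron and 21.4% of fibroblast and smooth muscle markers. They were 6.67% of astrocyte, 11.1% of endothelial and 14.3% of Schwann cell markers, on 1 gene each. Between the additions, 6 precursor markers (60%) and 11 oligodendrocyte markers (68.8%) were lower with BMP than with CNTF, where 7.5% of all named genes were called. Of the neuron markers 3 were higher and 1 lower (26.7%), and 2 fibroblast and smooth muscle markers were higher (14.3%). In the astrocyte list 1 was higher (6.67%), in the Schwann cell list 2 were lower (28.6%), and 0 endothelial or microglial markers were called. The part of these cell types in the guidance results was not tested.

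Start regions of members that moved are shown with motifs named for the pathways of both additions. RefSeq's GRCr8 windows run from 250 bases before to 50 after an annotated start, and 47 of the 61 members had a window, 48 windows in all. The letters searched were GGCGCC, a GC-rich SMAD-type motif, GTCTAGAC, the palindromic SMAD motif, and TTCNNNGAA, the STAT motif. Each letter string is its own reverse complement, so a match counts on both strands, and no string contains another. GGCGCC stood in 12 of 48 member windows (25%) and in 11% of all 33469 windows. The member windows were also richer in G and C, with a median of 63.2% against 51.7% over all windows. Among the 10 windows of genes that rose with BMP, 3 held it (30%): Nrp2, Ephb4 and Plxnb2. Plxnd1, Efna1 and Rgma, called in other comparisons, held it too. So did Ephb6, Neo1, Plxna2, Plxna3, Sema6d and Unc5a, which were called in no comparison without the block. TTCNNNGAA stood in 2 of 48 member windows (4.17%), those of Epha3 and Sema3e, and in 8.87% of all windows. GTCTAGAC stood in 0 of 48 and in 0.197% of all. A match is a description of the letters, not a bound site. The windows below are of the 3 risers with GGCGCC, of Epha3 and of Plxnd1, the gene that rose with CNTF, each written 5′ to 3′ along the gene with the matched letters in capitals.
Nrp2, chr9:71617004-71617303, plus strand: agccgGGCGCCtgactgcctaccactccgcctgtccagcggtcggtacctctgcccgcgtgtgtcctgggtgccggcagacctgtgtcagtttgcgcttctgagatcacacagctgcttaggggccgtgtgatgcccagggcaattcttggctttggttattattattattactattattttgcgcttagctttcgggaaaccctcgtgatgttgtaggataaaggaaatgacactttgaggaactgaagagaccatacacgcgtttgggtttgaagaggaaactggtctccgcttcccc
Ephb4, chr12:24988339-24988638, minus strand: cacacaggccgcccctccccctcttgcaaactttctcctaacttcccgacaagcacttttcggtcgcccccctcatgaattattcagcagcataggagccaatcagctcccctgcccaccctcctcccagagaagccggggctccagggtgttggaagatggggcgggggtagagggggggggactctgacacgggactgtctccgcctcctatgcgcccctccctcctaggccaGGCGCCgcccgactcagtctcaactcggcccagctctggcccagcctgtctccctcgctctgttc
Plxnb2, chr7:122137899-122138198, minus strand: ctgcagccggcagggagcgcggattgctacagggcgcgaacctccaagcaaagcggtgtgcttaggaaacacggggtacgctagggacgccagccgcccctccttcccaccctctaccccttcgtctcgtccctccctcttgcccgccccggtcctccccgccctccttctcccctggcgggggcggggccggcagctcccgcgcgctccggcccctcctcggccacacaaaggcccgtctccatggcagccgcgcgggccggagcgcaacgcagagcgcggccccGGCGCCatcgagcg
Epha3, chr11:14920376-14920675, minus strand: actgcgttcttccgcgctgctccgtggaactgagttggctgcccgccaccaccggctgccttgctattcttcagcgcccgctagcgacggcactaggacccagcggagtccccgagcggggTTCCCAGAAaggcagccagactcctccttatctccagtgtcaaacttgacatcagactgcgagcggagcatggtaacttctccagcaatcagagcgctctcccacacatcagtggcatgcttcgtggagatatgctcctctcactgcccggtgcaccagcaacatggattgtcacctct
Plxnd1, chr4:150715138-150715437, minus strand: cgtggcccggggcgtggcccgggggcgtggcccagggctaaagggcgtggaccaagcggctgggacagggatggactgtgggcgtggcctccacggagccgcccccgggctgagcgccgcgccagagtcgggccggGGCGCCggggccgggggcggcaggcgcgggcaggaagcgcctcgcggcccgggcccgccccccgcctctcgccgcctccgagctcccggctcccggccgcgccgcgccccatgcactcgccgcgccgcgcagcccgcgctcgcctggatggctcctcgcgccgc
Counted from the start base as 1, with negative numbers before it, the match begins at -15 in Ephb4, -129 in Epha3 and -114 in Plxnd1. In Nrp2 it begins at -245, at the far end of the window, and in Plxnb2 at 37, inside the transcript.

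Among the Slits, secreted repellents of the midline, Slit1 had the smallest adjusted p of all members against control. Its levels lay between 11.17 and 12.63 (median 11.98) in BMP arrays, between 8.91 and 9.79 (median 9.66) in CNTF arrays and between 9.30 and 10.63 (median 10.43) in control arrays. The lowest BMP array stood above every control and CNTF array, while CNTF and control arrays overlapped. The BMP minus control difference was 1.78 ± 0.25, or 3.44-fold (limma adjusted p = 0.000535), and the BMP minus CNTF difference was 2.39 ± 0.25, or 5.26-fold (adjusted p = 1.03e-05). The CNTF minus control difference of -0.61 ± 0.25 was lower in 6 of 6 pairs and was called only with the block (adjusted p = 0.306, and 0.0129 with the block). CNTF array 4 and BMP array 4 were the lowest of their groups, as was control array 4.

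Slit2, also a midline repellent, had levels between 8.90 and 10.86 (median 9.78) in BMP arrays, between 8.84 and 9.80 (median 9.23) in CNTF arrays and between 8.50 and 9.23 (median 8.68) in control arrays. BMP arrays 1 to 3 lay at 10.05, 10.75 and 10.86, above all controls, and BMP arrays 4 to 6 at 8.90, 9.51 and 8.98, within or just above the control range. The difference of 1.04 ± 0.30 (2.06-fold, adjusted p = 0.0454) was higher in 6 of 6 pairs, but its adjusted p was 0.0525 to 0.117 when any of 12 single arrays was left out. A further probe set of Slit2 was called in the same direction (1.29, adjusted p = 0.0399) and the third was not (0.29, adjusted p = 0.52). Slit3 had 9.18 ± 1.28 in BMP arrays, 8.28 ± 0.52 in CNTF arrays and 8.65 ± 0.25 in control arrays, a BMP minus control difference of 0.53 ± 0.43 (adjusted p = 0.578). BMP arrays 1 to 3 lay at 10.23, 10.94 and 9.56, above all controls, and BMP arrays 4 to 6 at 8.55, 8.24 and 7.58, within or below the control range.

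Of the Slit receptors, Robo2 rose with BMP. The levels lay between 14.01 and 14.51 (median 14.33) in BMP arrays, between 12.98 and 13.65 (median 13.26) in CNTF arrays and between 13.19 and 14.09 (median 13.78) in control arrays. BMP and CNTF arrays did not overlap. Control 3, at 14.09, lay above BMP arrays 1 and 2, and the other controls lay below all BMP arrays. The BMP minus control difference was 0.61 ± 0.15 (1.53-fold, adjusted p = 0.016) and the BMP minus CNTF difference 1.0 ± 0.15 (2-fold, adjusted p = 0.000362). The 2 further probe sets of Robo2 had BMP minus control differences of 0.53 (adjusted p = 0.151) and 0.55 (adjusted p = 0.221), and the mean of its probe sets was not called (adjusted p = 0.0816). Robo1 differed by 0.52 ± 0.20 in the same comparison without a call (adjusted p = 0.141), with an interval of 2 standard errors from 0.12 to 0.92.

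Robo3, a divergent Robo that in commissural axons counters Slit repulsion before the midline is crossed, had the widest spread between arrays of the 3 receptors. Its levels were 10.43, 12.95, 13.22, 11.46, 11.63 and 9.61 in BMP arrays 1 to 6. They were 9.40, 12.62, 12.02, 11.04, 10.68 and 7.96 in CNTF arrays 1 to 6 and 8.49, 10.80, 11.10, 10.30, 10.07 and 8.16 in control arrays 1 to 6. Numbers 2 and 3 were the highest and numbers 1 and 6 the lowest in every group. The groups overlapped widely, and BMP was the highest of its number in all 6 cases. The BMP minus control difference of 1.73 ± 0.75 was not called without the block (adjusted p = 0.206) and was called with it (adjusted p = 2.33e-05). Likewise the CNTF minus control difference of 0.80 ± 0.75 gave an adjusted p of 0.814, and 0.0156 with the block, and the BMP minus CNTF difference of 0.93 ± 0.75 gave 0.621, and 0.00303 with the block.

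**Figure D3:**
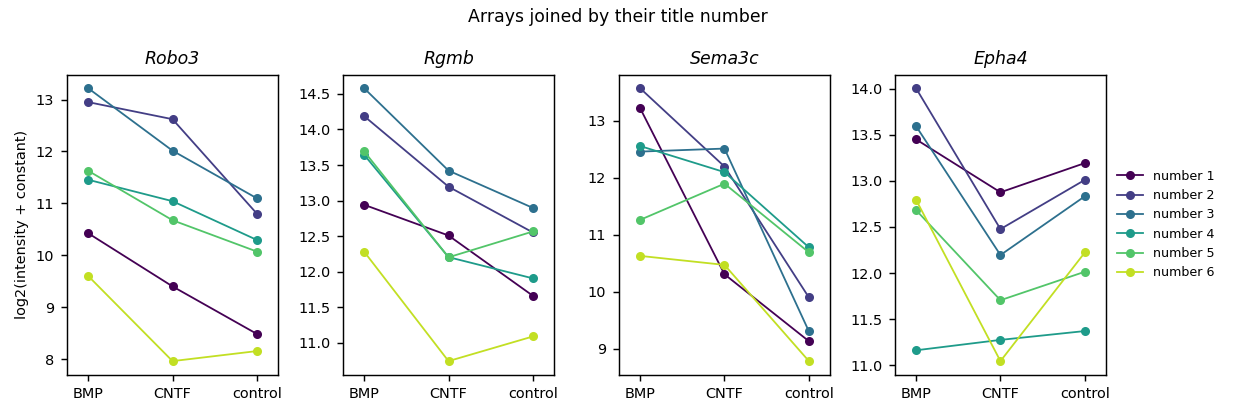
Levels, as log2(intensity + constant), of Robo3, Rgmb, Sema3c and Epha4 in the 18 arrays, with arrays of the same title number joined. For Robo3 and Rgmb the BMP array is the highest of its number in all 6 cases, while numbers differ among themselves by more than the groups do.

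Among the 7 secreted class 3 semaphorins, Sema3c alone was called, higher with BMP. Sema3c, which signals through neuropilins and plexins, had levels of 13.23, 13.57, 12.46, 12.56, 11.26 and 10.63 in BMP arrays 1 to 6. They were 10.31, 12.20, 12.51, 12.10, 11.90 and 10.47 in CNTF arrays 1 to 6 and 9.13, 9.90, 9.31, 10.78, 10.69 and 8.79 in control arrays 1 to 6. BMP arrays 1 to 4 lay above all controls at 12.46 to 13.57, BMP array 5 stood at 11.26, and BMP array 6 at 10.63, below controls 4 and 5. The BMP minus control difference was 2.52 ± 0.50, or 5.73-fold (adjusted p = 0.00498), higher in 6 of 6 pairs by 0.57 to 4.09. The CNTF minus control difference of 1.82 ± 0.50 was also higher in 6 of 6 pairs and was called only with the block (adjusted p = 0.0684, and 0.00983 with the block). The BMP minus CNTF difference of 0.70 ± 0.50 was not called (adjusted p = 0.555), and its interval of 2 standard errors ran from -0.30 to 1.71.

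The other class 3 semaphorins were not called in any comparison, with or without the block. Sema3d differed by 0.75 ± 0.32 between BMP and control (adjusted p = 0.205) and by 0.70 ± 0.32 between CNTF and control (adjusted p = 0.407). Sema3e, a ligand of Plxnd1, was at nearly the same level in every group, 12.50 ± 0.30 in BMP arrays, 12.54 ± 0.35 in CNTF arrays and 12.49 ± 0.34 in control arrays, and its BMP minus control interval of 2 standard errors was -0.35 to 0.36. The windows of these 3 genes lie on the same chromosome, at chr4:18699578-18699877 for Sema3c, chr4:21510325-21510624 for Sema3e and chr4:23460922-23461221 for Sema3d. Sema3f, a ligand of neuropilin 2, differed by 0.59 ± 0.26 (adjusted p = 0.214), and Sema3a, the classical ligand of neuropilin 1, by 0.31 ± 0.26 (adjusted p = 0.609). Sema3g was lower with CNTF by a difference of -0.74 ± 0.21 that missed the threshold (adjusted p = 0.0744). Its second probe set differed by 0.07 (adjusted p = 0.972). Both probe sets were dim, with mean levels of 7.72 and 7.53.

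The neuropilins, co-receptors of the class 3 semaphorins and of vascular endothelial growth factors, both rose with BMP. Nrp1 levels lay between 10.65 and 11.63 (median 11.41) in BMP arrays, between 9.46 and 10.48 (median 10.05) in CNTF arrays and between 9.25 and 10.51 (median 9.79) in control arrays. No BMP array fell within the control or the CNTF range, and BMP arrays 4 and 6 were the lowest of their group. The BMP minus control difference was 1.41 ± 0.24 (2.65-fold, adjusted p = 0.00178) and the BMP minus CNTF difference 1.20 ± 0.24 (2.3-fold, adjusted p = 0.0046). A second probe set of Nrp1 gave 1.58 (adjusted p = 0.001) for BMP minus control. With CNTF the difference from control was 0.21 ± 0.24 (adjusted p = 0.877).

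Nrp2, whose start region is printed above, had levels between 10.30 and 11.37 (median 11.16) in BMP arrays, between 9.20 and 10.26 (median 9.83) in CNTF arrays and between 9.32 and 10.24 (median 9.95) in control arrays. The BMP arrays stood above both other groups, by a narrow margin for arrays 4 and 6. The differences were 1.03 ± 0.23 for BMP minus control (2.05-fold, adjusted p = 0.01) and 1.16 ± 0.23 for BMP minus CNTF (2.23-fold, adjusted p = 0.00394). CNTF and control differed by -0.12 ± 0.23 (adjusted p = 0.939). A second, dimmer probe set of Nrp2 had a BMP minus control difference of 0.28 (adjusted p = 0.705), and the mean of the gene's probe sets was not called (0.66, adjusted p = 0.109).

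**Figure D4:**
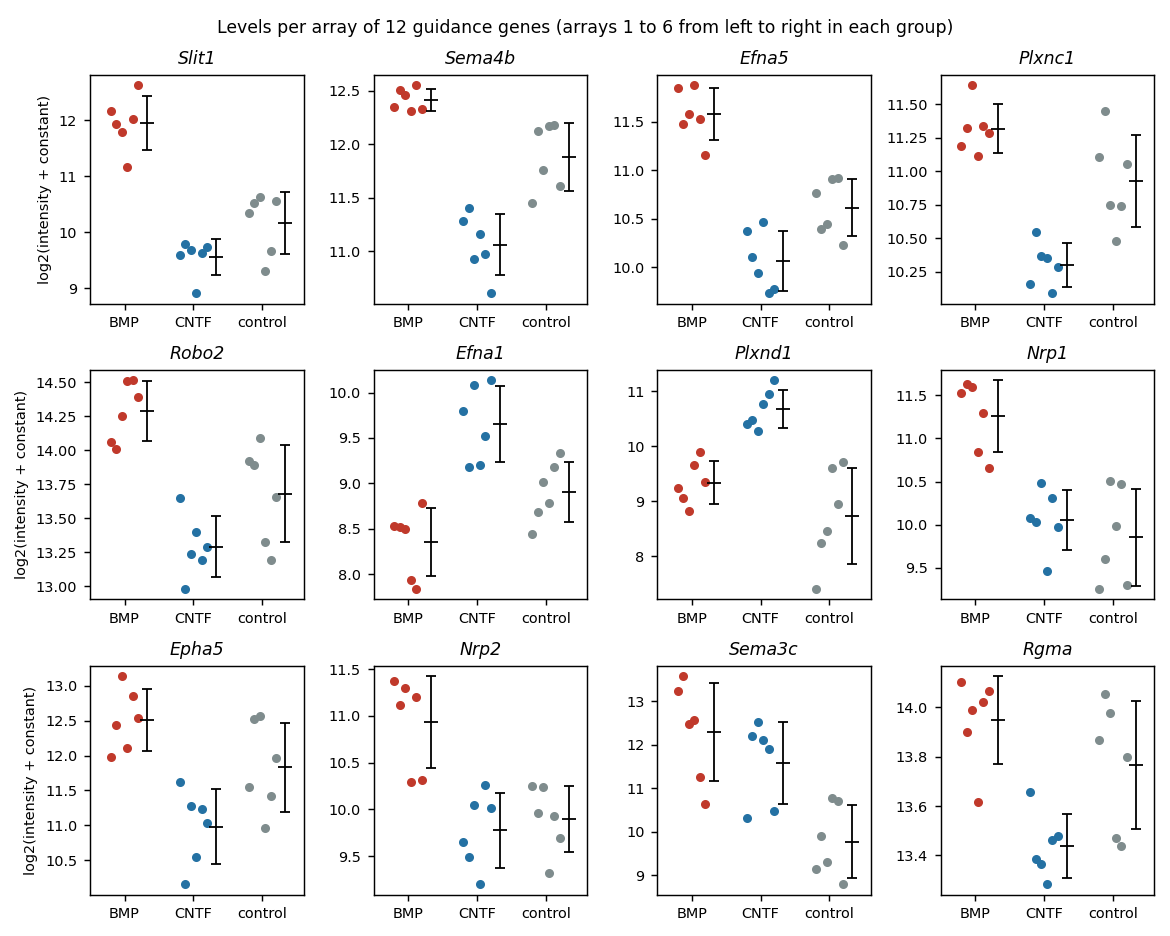
Levels, as log2(intensity + constant), of 12 guidance genes in each of 6 BMP, 6 CNTF and 6 control arrays, in the order of the title numbers within a group, with the mean and SD of each group as bars. BMP arrays lie above all CNTF arrays for Slit1, Sema4b, Efna5, Plxnc1, Robo2, Nrp1, Epha5 and Nrp2, and below all of them for Efna1 and Plxnd1.

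Plexins, the signalling receptors of semaphorins, moved in both directions. Plxnd1, the receptor of Sema3e, had levels between 8.82 and 9.89 (median 9.29) in BMP arrays, between 10.27 and 11.19 (median 10.62) in CNTF arrays and between 7.40 and 9.70 (median 8.71) in control arrays. Every CNTF array lay above every BMP and control array, and the controls spread widely, with control 1 lowest and controls 4 and 6 highest. Plxnd1 rose with CNTF by 1.95 ± 0.31, or 3.86-fold (adjusted p = 0.00136), and the BMP minus CNTF difference was -1.34 ± 0.31 (adjusted p = 0.0131). BMP arrays differed from control by 0.61 ± 0.31, which was not called (adjusted p = 0.318).

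Plxnc1, the receptor of the membrane-anchored semaphorin 7A, went the other way with CNTF. The receptor's levels lay between 11.11 and 11.64 (median 11.30) in BMP arrays, between 10.09 and 10.55 (median 10.32) in CNTF arrays and between 10.48 and 11.45 (median 10.90) in control arrays. BMP and CNTF arrays did not overlap, and the controls spanned the gap between them, with control 2 inside the BMP range and control 4 inside the CNTF range. The CNTF minus control difference was -0.63 ± 0.14 (1.55-fold lower, adjusted p = 0.0208), lower in 6 of 6 pairs. Without control 1, control 2 or CNTF array 5 the adjusted p lay at 0.0513 to 0.0596. The BMP minus CNTF difference was 1.01 ± 0.14 (2.02-fold, adjusted p = 0.000236). BMP minus control was called only with the block (0.39 ± 0.14, adjusted p = 0.126, and 0.0412 with the block). A second probe set gave -0.41 for CNTF minus control (adjusted p = 0.218) and 0.81 for BMP minus CNTF (adjusted p = 0.00252).

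Plxnb2, a receptor of class 4 semaphorins, rose by a small step with BMP, to 14.33 ± 0.18, against 13.98 ± 0.13 in CNTF and 14.02 ± 0.10 in control arrays. The difference from control was 0.31 ± 0.08 (1.24-fold, adjusted p = 0.0303) and that from CNTF 0.35 ± 0.08 (adjusted p = 0.015). The first of these lost its call without BMP array 1, 2 or 3 or control 2, 3 or 6 (adjusted p 0.05 to 0.079). The plexins of class A, which pair with neuropilins, were not called without the block. With the block, Plxna4 was called higher with BMP (0.65 ± 0.30, adjusted p = 0.238, and 0.0368 with the block) and Plxna1 lower with CNTF (-0.31 ± 0.11, adjusted p = 0.23, and 0.027 with the block). The second probe set of Plxna4 was not called (0.39, adjusted p = 0.509, and 0.124 with the block). Nor were the 2 further, dim probe sets of Plxna1 with CNTF (-0.39 and -0.22, adjusted p = 0.455 and 0.703 with the block). Plxna3 differed from control by 0.07 ± 0.10 with BMP and 0.01 ± 0.10 with CNTF, with intervals of 2 standard errors of -0.13 to 0.27 and -0.20 to 0.21.

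Sema4b, a transmembrane semaphorin of class 4, was the member called in all 3 comparisons. Sema4b levels lay between 12.31 and 12.55 (median 12.40) in BMP arrays, between 10.61 and 11.41 (median 11.07) in CNTF arrays and between 11.45 and 12.18 (median 11.94) in control arrays. All 6 BMP arrays stood above all controls, and all 6 CNTF arrays below all controls, so the 3 groups were fully separate. Sema4b rose with BMP by 0.54 ± 0.14 (1.45-fold, adjusted p = 0.029) and fell with CNTF, a difference of -0.82 ± 0.14 (1.76-fold lower, adjusted p = 0.00255). BMP minus CNTF was 1.35 ± 0.14 (2.56-fold, adjusted p = 1.09e-05). The rise with BMP lost its call, at adjusted p 0.0573 to 0.0729, without BMP array 2, 3 or 5 or control 1, 3 or 6.

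Of the 9 other membrane-bound semaphorins, none was called without the block. Sema4d, a ligand of plexin B1, had the largest uncalled BMP minus CNTF difference, -1.45 ± 0.47 (adjusted p = 0.0762, and 0.00267 with the block). Its levels lay between 7.25 and 8.77 (median 8.10) in BMP arrays, between 7.85 and 11.48 (median 9.67) in CNTF arrays and between 7.30 and 9.81 (median 8.96) in control arrays, and number 3 was the highest in the CNTF and control groups. Sema4a was lower with BMP in 6 of 6 pairs and was called only with the block (-0.54 ± 0.20, adjusted p = 0.136, and 0.019 with the block). Sema6a, a transmembrane ligand of class A plexins, had 14.54 ± 0.25 in BMP arrays, 14.80 ± 0.21 in CNTF arrays and 14.48 ± 0.20 in control arrays. Its CNTF minus control difference of 0.32 ± 0.12 and its BMP minus CNTF difference of -0.26 ± 0.12 were called only with the block (adjusted p = 0.238 and 0.268, and 0.0047 and 0.0103 with the block). Sema6d, a ligand of plexin A1, was called with the block alone for BMP minus control (0.30 ± 0.18, adjusted p = 0.406, and 0.0271 with the block). Sema5a varied more between arrays than between groups, with 11.65 ± 0.88 in BMP arrays, 11.66 ± 1.0 in CNTF arrays and 11.58 ± 1.04 in control arrays. Sema4g, Sema6b and Sema6c differed from control by -0.15 to -0.01 over both additions.

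The 3 ephrin-A ligands, lipid-anchored partners of EphA receptors, were all called between BMP and CNTF, Efna4 and Efna5 higher with BMP and Efna1 lower. Efna5 levels lay between 11.16 and 11.88 (median 11.55) in BMP arrays, between 9.73 and 10.47 (median 10.03) in CNTF arrays and between 10.23 and 10.92 (median 10.61) in control arrays. The BMP arrays stood above every other array, and CNTF arrays overlapped the lower controls. Efna5 rose with BMP by 0.97 ± 0.16 (1.96-fold, adjusted p = 0.00161), and BMP minus CNTF was 1.51 ± 0.16 (2.85-fold, adjusted p = 1.72e-05). With CNTF the difference from control, -0.55 ± 0.16, was lower in 6 of 6 pairs and was called only with the block (adjusted p = 0.105, and 0.00359 with the block). A second, dim probe set of Efna5 was also called for BMP minus control (0.89, adjusted p = 0.0481).

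Efna1, another EphA ligand, was lower with BMP than with CNTF. Levels of Efna1 lay between 7.84 and 8.78 (median 8.51) in BMP arrays, between 9.18 and 10.13 (median 9.66) in CNTF arrays and between 8.44 and 9.33 (median 8.90) in control arrays. BMP and CNTF arrays did not overlap, and the controls lay between and overlapped both. The BMP minus CNTF difference was -1.30 ± 0.22 (2.47-fold lower, adjusted p = 0.00104), and a second probe set gave -1.36 (adjusted p = 0.00416). Against control, neither addition was called without the block: BMP differed by -0.56 ± 0.22 (adjusted p = 0.151, and 0.0419 with the block) and CNTF by 0.75 ± 0.22 (adjusted p = 0.0854, and 0.0163 with the block). The second probe set was called for BMP minus control (-0.92, adjusted p = 0.0486).

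Efna4 had 10.03 ± 0.46 in BMP arrays, 9.34 ± 0.29 in CNTF arrays and 9.30 ± 0.26 in control arrays, and rose with BMP by 0.72 ± 0.20 (1.65-fold, adjusted p = 0.0351). BMP minus CNTF was 0.69 ± 0.20 (adjusted p = 0.044). These calls were the least stable of the ephrins: the first was lost without any of 8 single arrays (adjusted p 0.0536 to 0.0809) and the second without any of 13 (0.051 to 0.113). Efna4 and Efna1 are near each other on chromosome 2, on the same strand, with windows at chr2:177050664-177050963 and chr2:176986772-176987071, and their BMP minus CNTF differences had opposite signs. The ephrin-B ligands, which span the membrane, were called with the block alone. Efnb3 had BMP minus control and BMP minus CNTF differences of 0.44 ± 0.19 and 0.54 ± 0.19 (adjusted p = 0.195 and 0.0994, and 0.00343 and 0.00068 with the block). Efnb1 differed by 0.64 ± 0.19 between BMP and CNTF (adjusted p = 0.0536, and 0.00241 with the block).

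Of the 8 EphA receptors, tyrosine kinases that bind the ephrin-A ligands, 1 rose with BMP. Epha3 had 10.47 ± 0.60 in BMP arrays, 9.64 ± 0.64 in CNTF arrays and 9.17 ± 0.53 in control arrays. BMP array 4, at 9.34, was within the control range and the other BMP arrays lay above it. The difference was 1.30 ± 0.32 (2.46-fold, adjusted p = 0.0173), and a further probe set gave 1.42 (adjusted p = 0.0261), while the third gave 0.78 (adjusted p = 0.174). BMP minus CNTF was called only with the block (0.83 ± 0.32, adjusted p = 0.149, and 0.00851 with the block).

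Epha5, a receptor of Efna5 among others, differed between the additions. Its levels lay between 11.97 and 13.14 (median 12.49) in BMP arrays, between 10.15 and 11.63 (median 11.13) in CNTF arrays and between 10.96 and 12.57 (median 11.76) in control arrays. BMP arrays lay above all CNTF arrays, and controls overlapped both. BMP minus CNTF was 1.53 ± 0.29, or 2.89-fold (adjusted p = 0.00255). The difference from control was 0.68 ± 0.29 with BMP (adjusted p = 0.193) and -0.85 ± 0.29 with CNTF (adjusted p = 0.163, and 0.0434 with the block). Epha4, which binds ephrins of both classes, had 12.95 ± 1.01 in BMP arrays, 11.93 ± 0.71 in CNTF arrays and 12.44 ± 0.70 in control arrays, and its BMP minus CNTF difference of 1.02 ± 0.42 was called only with the block (adjusted p = 0.19, and 0.00103 with the block). Number 4 was the exception, with Epha4 levels of 11.16 in BMP, 11.27 in CNTF and 11.37 in control, so BMP was lowest there. Epha7 went the other way, with CNTF minus control of 0.63 ± 0.20 and BMP minus CNTF of -0.61 ± 0.20, both called only with the block (adjusted p = 0.12 and 0.0763, and 0.00884 and 0.00576 with the block). A second probe set of Epha7 was called without the block for BMP minus CNTF (-0.76, adjusted p = 0.0228). Epha2, Epha6, Epha8 and Epha10 had means below the table's median and were not called in any comparison.

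Of the 4 EphB receptors, Ephb4, known for its binding of ephrin-B2 at vessels, rose with BMP. Its mean level was 10.76 ± 0.13 in BMP arrays, 10.53 ± 0.27 in CNTF arrays and 10.21 ± 0.14 in control arrays. BMP and control arrays did not overlap, and CNTF arrays lay across the lower BMP and upper control levels. The difference was 0.55 ± 0.13 (1.46-fold, adjusted p = 0.0121). With CNTF it was 0.32 ± 0.13, higher in 6 of 6 pairs and called only with the block (adjusted p = 0.276, and 0.0497 with the block). BMP and CNTF differed by 0.23 ± 0.13 (adjusted p = 0.389), with an interval of -0.02 to 0.48. Ephb1 had 12.35 ± 0.74 in BMP arrays, 12.77 ± 0.35 in CNTF arrays and 12.67 ± 0.66 in control arrays and differed from control by -0.32 ± 0.31 with BMP (adjusted p = 0.665). Ephb3 was -0.47 ± 0.20 from control with BMP (adjusted p = 0.2), and neither Ephb3 nor Ephb6 was called in any comparison.

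The netrin system was called nowhere without the block. Ntn1, the attractant of the floor plate, had 12.47 ± 0.55 in BMP arrays, 12.49 ± 0.39 in CNTF arrays and 13.05 ± 0.54 in control arrays. This brightest probe set was lower than control by similar amounts with both additions, -0.58 ± 0.26 with BMP and -0.56 ± 0.26 with CNTF. Each was called only with the block (adjusted p = 0.221 and 0.412, and 0.0138 and 0.0328 with the block). BMP and CNTF differed in it by -0.03 ± 0.26, with an interval of -0.54 to 0.49. A second, dim probe set of Ntn1 gave -0.44 with BMP and -0.51 with CNTF, not called with the block (adjusted p = 0.195 and 0.198). The third, also dim, gave -0.66 with BMP (adjusted p = 0.367, and 0.0905 with the block). With CNTF it gave -1.12, called only with the block (adjusted p = 0.155, and 0.0128 with the block). Dcc, the receptor that mediates attraction to netrin, had 10.28 ± 0.79 in BMP arrays, 9.69 ± 0.83 in CNTF arrays and 9.75 ± 1.03 in control arrays. Its BMP minus control difference of 0.54 ± 0.46 and its BMP minus CNTF difference of 0.60 ± 0.46 were called only with the block (adjusted p = 0.613 and 0.602, and 0.0492 and 0.0328 with the block). The brightest probe sets of the repulsive receptors Unc5a, Unc5b and Unc5c had lower means than control with both additions, by -0.47 to -0.23, and none was called with or without the block. Second probe sets differed from these: that of Unc5c was 0.18 from control with BMP and 0.25 with CNTF (adjusted p = 0.817 and 0.865), and that of Unc5b -0.07 and 0.0074 (adjusted p = 0.926 and 0.997). The brightest probe set of Unc5c differed by -0.39 ± 0.23 with BMP (adjusted p = 0.41) and -0.31 ± 0.23 with CNTF (adjusted p = 0.729). Ntn5 was dim and was not called.

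The repulsive guidance molecules are anchored to the membrane by lipid and bind neogenin. Rgma levels lay between 13.62 and 14.10 (median 14.01) in BMP arrays, between 13.28 and 13.66 (median 13.42) in CNTF arrays and between 13.44 and 14.05 (median 13.83) in control arrays. BMP array 4 lay just below CNTF array 1, and otherwise the BMP arrays stood above the CNTF arrays. BMP minus CNTF was 0.51 ± 0.11 (1.42-fold, adjusted p = 0.00723), higher in 6 of 6 pairs. Against control, BMP differed by 0.18 ± 0.11 (adjusted p = 0.42) and CNTF by -0.33 ± 0.11, the second called only with the block (adjusted p = 0.163, and 0.0218 with the block).

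Rgmb, also a BMP co-receptor, had levels between 12.28 and 14.58 (median 13.67) in BMP arrays, between 10.74 and 13.42 (median 12.36) in CNTF arrays and between 11.09 and 12.90 (median 12.23) in control arrays. Number 3 was the highest and number 6 the lowest in every group, and BMP was the highest of its number in 6 of 6 cases. Its BMP minus control difference of 1.44 ± 0.43 (2.72-fold) just missed the threshold (adjusted p = 0.0501, and 1.3e-05 with the block), with same-numbered differences of 1.13 to 1.74. BMP minus CNTF was 1.18 ± 0.43 (adjusted p = 0.121, and 5.42e-05 with the block). Neogenin, encoded by Neo1, had 12.66 ± 0.42 in BMP arrays, 12.40 ± 0.26 in CNTF arrays and 12.40 ± 0.28 in control arrays and differed from control by 0.26 ± 0.17 with BMP (interval -0.09 to 0.60) and by -0.0048 ± 0.17 with CNTF (interval -0.35 to 0.34). Unc50 and Unc5cl, the symbol matches outside the families, differed from control by -0.04 to 0.10 over both additions.

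Genes that act beside or below these receptors were counted from lists of named genes, also chosen with earlier results of these data known. Of 46 measured genes of guidance signalling inside the cell, 3 rose and 4 fell with BMP, 3 rose and 0 fell with CNTF, and 3 were higher and 6 lower with BMP than with CNTF. These were 15.2%, 6.52% and 19.6% of the list, where 7.24%, 2.86% and 7.5% of all named genes were called. With the block, 8 rose and 8 fell with BMP, 7 rose and 2 fell with CNTF, and 5 were higher and 9 lower with BMP than with CNTF, or 34.8%, 19.6% and 30.4% of the list beside 20%, 9.5% and 18.2% of all named genes. Chn1, a Rac-inactivating protein that acts below EphA4, rose with BMP (0.81, adjusted p = 0.0014) and with CNTF (0.61, adjusted p = 0.0188). Ablim1, an actin-binding LIM protein, also rose with both (2.05, adjusted p = 0.00689 with BMP, and 2.21, adjusted p = 0.00656 with CNTF). Dpysl5, a collapsin response mediator, rose with BMP (2.01, adjusted p = 0.00183), and its relative Dpysl4 fell with BMP (-0.46, adjusted p = 0.0191) and rose with CNTF (0.60, adjusted p = 0.00567). The kinase Fyn fell with BMP (-0.71, adjusted p = 0.00567), as did Chn2 (-1.66, adjusted p = 0.0111).

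Of 34 measured guidance cues and adhesion molecules outside the rule, 6 rose and 5 fell with BMP, 4 rose and 2 fell with CNTF, and 4 were higher and 5 lower with BMP than with CNTF. These were 32.4%, 17.6% and 26.5% of the list, where 7.24%, 2.86% and 7.5% of all named genes were called. With the block, 8 rose and 9 fell with BMP, and 9 rose and 4 fell with CNTF. Between the additions, 7 were higher and 8 lower with BMP than with CNTF. These were 50%, 38.2% and 44.1% of the list, beside 20%, 9.5% and 18.2% of all named genes with the block. The adhesion molecules L1cam, Nrcam and Chl1, which guide axons along other axons, rose with BMP by 1.49, 1.20 and 1.91 (adjusted p = 0.0148, 0.00249 and 0.00221). Chl1 rose with CNTF as well (1.79, adjusted p = 0.0056). Netrin-G1, encoded by Ntng1, rose with BMP (0.99, adjusted p = 0.0128), while Lrrc4c, which encodes a ligand of netrin-G1, fell (-1.13, adjusted p = 0.000902). Draxin, a repellent of commissural axons, rose with BMP (1.63, adjusted p = 0.0285). Omg and Mag, inhibitors of axon growth, fell with BMP (-1.66, adjusted p = 0.00639, and -2.68, adjusted p = 0.0199). Oligodendrocyte markers fell in the same arrays, and Mag is itself in that marker list. A link between these changes was not tested. With CNTF, Wnt5a and Rtn4rl2 rose (0.90, adjusted p = 0.0177, and 1.32, adjusted p = 0.0204), and Alcam and Dscam fell (-0.71, adjusted p = 0.0199, and -0.97, adjusted p = 0.0348).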

How the data were processed

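The file held the authors' deposited intensity of 31099 probe sets per array on a linear scale; how it was summarised is not given in the sources used here. Trimmed mean intensities were 2500.7 to 2500.8 on all arrays and array medians 666.5 to 817.2, so no further normalization was applied. The 57 control probe sets were left out. Gene names came from the platform annotation: 20826 tested probe sets had 1 symbol, 436 several and 9780 none. The fit took all 18 arrays (limma 3.58.1, R 4.3.3, group means by lmFit, eBayes with an intensity trend). The fit without the block was tested on simulated data. Its simulated arrays were independent, so the test does not cover the shared deviations of same-numbered arrays. No precision from depth exists for arrays; 6 per group limit it.

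Deviations from the group means correlated in all 18 same-numbered pairs (r 0.12 to 0.49), so the numbers were taken to pair the arrays. Different-numbered pairs gave -0.40 to 0.36. The members and lists were chosen with earlier results of these data known. Named genes were the called members, the 3 largest uncalled differences per comparison and the member with the highest mean of each class; others, and list genes, were named after their values were seen. Alternatives were constants of 30 and 500, quantile normalization, a filter at the 40th percentile, the block, only the groups compared, no trend, mean of probe sets, and leaving out each array.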

Additional observations from a re-analysis of the deposited data

Results flagged for a closer look

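In 3 of 90 groups, over 30 named genes, a single array lay far from the other 5 by Dixon's ratio; chance alone gives about 1 in 20. Ephb1 was at 10.87 in BMP array 4, where the other BMP arrays lay at 12.46 to 12.77. Sema3e was at 13.09 in BMP array 4, where the others lay at 12.32 to 12.50. Slit1 was at 8.91 in CNTF array 4, where the others lay at 9.60 to 9.79. All 3 values came from arrays numbered 4. The cause was not tested.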

How the results depend on the processing

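No difference of a named member that was called changed sign under any alternative. With the title number as a replicate block, the count of called members moved to 22 for BMP against control, 15 for CNTF against control and 23 for BMP against CNTF, where they were 12, 3 and 13 without it. The block ended no call of a member, and every call it added among members is given above with both adjusted p values; it also added calls among the marker and pathway lists, and those against control are given above as counts. Under the other 7 settings the counts were 10 to 13 for BMP against control, 3 for CNTF against control and 13 to 14 for BMP against CNTF. With single arrays left out they were 8 to 13, 2 to 4 and 12 to 16. The 8 came without BMP array 2, BMP array 3 or control 6, and the 2 without control 1, control 2 or CNTF array 5. Of 28 called differences, 20 stayed called under every setting run on them; Efna1 (BMP against CNTF) was not tested with dim probe sets left out, since the filter removed it. Against control, Efna4 with BMP was lost without controls 1, 2, 4, 5 or 6 or BMP arrays 1, 2 or 3, and under quantile normalization (adjusted p = 0.0633) and with only the groups compared (0.0659). Against CNTF, Efna4 was lost without controls 1, 2, 4 or 6, BMP arrays 1, 2, 3 or 5 or CNTF arrays 1, 3, 4, 5 or 6, and under the same settings (0.0635 and 0.0828). Slit2 was lost without controls 1, 2, 3, 4 or 6, BMP arrays 1, 2 or 3 or CNTF arrays 3, 4, 5 or 6, and with the constant of 500 (0.0509), quantile normalization (0.0574) and only the groups compared (0.0937). Plxnb2 with BMP was lost against control without BMP arrays 1, 2 or 3 or controls 2, 3 or 6 (adjusted p up to 0.079), with only the groups compared (0.0556) and without the trend (0.0687), and Plxnc1 with CNTF with only the groups compared (0.0513). Sema4b, Nrp2 and Robo2 are given with their values above. The causes were not tested. The time of the controls is unknown, which limits every difference against control. The cell type and the independence of the arrays are unknown too, and they limit all 3 comparisons.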
